A study of Mus musculus with 50 samples.

Results

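Kupffer cells, the resident macrophages of the liver sinusoids, were selected on the counts of 5 genes in a spatial transcript map of mouse liver. A segmented cell with at least 20 gene counts was taken as a Kupffer cell where Cd5l, C1qa, C1qb, C1qc and Marco together reached at least 4 counts and at least 4% of its gene counts. This selected 1708 of 49917 cells, or 3.42%, with 730 in control and 978 in HIRA KO liver. The sections were imaged with the CosMx Spatial Molecular Imager, which decodes single transcripts of 1000 gene targets and 10 negative probes in fixed tissue and assigns them to cells segmented from stains. Control mice were wild-type C57BL/6 and HIRA KO mice were HIRA fl/fl, with floxed Hira alleles, and both received the same AAV8 vector with Cre recombinase under the TBG promoter. That promoter is active in hepatocytes, so the deletion was aimed at hepatocytes and not at Kupffer cells. All mice were injected at 6 months of age and collected 12 months later, at 18 months. The fields of view formed 6 tissue areas on 1 slide, 3 control and 3 HIRA KO, and the area was the unit of replication. The labels tie no area to a named mouse, so p-values measured only the spread between these areas. Both genotypes lay on 1 slide, control on one side and HIRA KO on the other, so genotype and side cannot be told apart.

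Kupffer cells take up particles, senescent erythrocytes and immune complexes from the portal blood, and export the recovered iron through ferroportin. Their survival depends on signals through the colony-stimulating factor 1 receptor. Cd5l encodes a secreted scavenger protein, C1qa, C1qb and C1qc the chains of complement C1q, and Marco a scavenger receptor for bacteria. The panel carried no probe for Hira (0 of 1000 targets), and its deletion was therefore not checked.

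The 5 genes used for selection are given as a description only. Of the Kupffer cells, 81.7% held a Cd5l count, 86.7% C1qa, 91.0% C1qb, 62.4% C1qc and 28% Marco. In all other cells those shares were 12.2%, 16.2%, 19.2%, 9.48% and 6.83%. All 5 genes were counted in 12.8% of the Kupffer cells, 4 of them in 38.1% and 3 in 36.1%. The median Kupffer cell held 8 counts of the 5 genes and the highest 50. Close to the minimum, 241 Kupffer cells held exactly 4 counts, and 260 cells with 3 counts and at least 4% stayed outside. A share between 4 and 5% was held by 554 Kupffer cells, and 710 cells with at least 4 counts stayed outside with a share between 3 and 4%. Of all transcripts of the 5 genes, 26.4% lay in Kupffer cells, 67.6% in other cells and 5.81% outside segmented cells. Most transcripts of these genes thus lay in cells that did not meet the rule, so the 1708 cells are not every cell that held them.

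Over all cells the median held 88 to 149 gene counts by area. The median Kupffer cell held 108, 134 and 110 gene counts in control areas 1, 2 and 3, and 117, 131.5 and 169 in HIRA KO areas 1, 2 and 3. Without the 5 selection genes, an area's Kupffer cells summed to between 21959 and 104045 counts, and HIRA KO 3 alone gave the highest sum. Transcripts were denser in HIRA KO tissue, with 10.8 ± 0.438 counts per 1000 square pixels of cell area against 7.07 ± 1.34 in control (mean ± SD, n = 3 areas each, exact permutation p = 0.1, the smallest that 3 against 3 allows).

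The share of Kupffer cells varied more within each genotype than between them. In control areas 1, 2 and 3 they made up 2.38, 2.80 and 4.87% of cells. In HIRA KO areas they made up 1.72, 2.13 and 7.81%. HIRA KO 3 stood above every other area and the other HIRA KO areas below every control area, so the groups overlapped. The means were 3.35 ± 1.33% and 3.88 ± 3.40% (SD, n = 3 areas each), a difference of 0.533 points (exact permutation test, two-sided, p = 1). Without HIRA KO 3 the difference was -1.43 points, so its direction rested on that area. Set against the control area of the same slide row, HIRA KO was lower by 0.665 and 0.669 points in the first and second row and higher by 2.93 points in the third. Within HIRA KO 3 the share ran from 4.59 to 16.2% over its 8 fields of view, with a median of 7.06%. Only counts were compared here, so loss of cells and loss of the 5 transcripts per cell cannot be told apart.

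**Figure D1:**
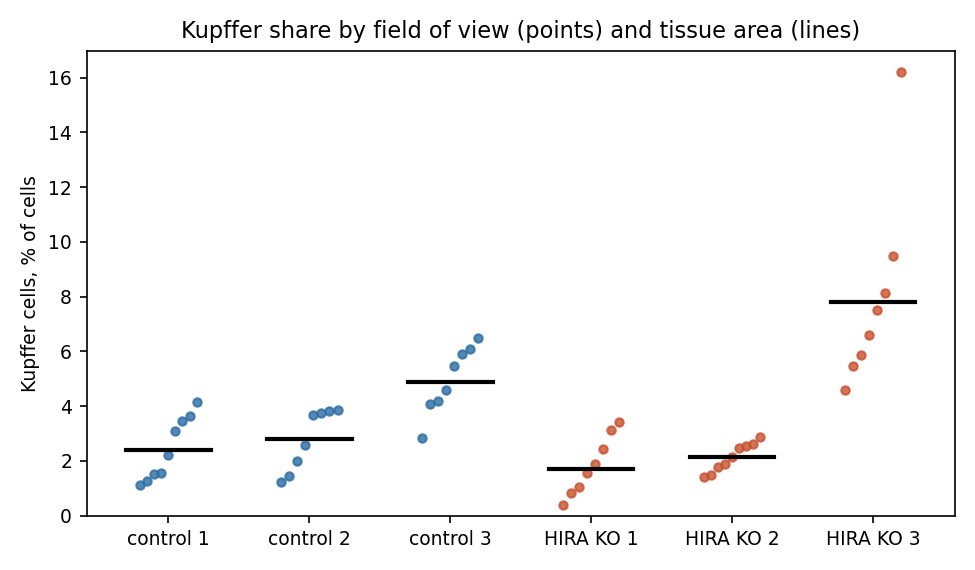
Kupffer cells as a percentage of cells with at least 20 gene counts (vertical axis), 1 point for each field of view, placed in order of value within its tissue area (horizontal axis), with a line for the whole area. The fields of HIRA KO 3 reached from 4.59 to 16.2%, and the areas of both genotypes overlapped.

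Genes that the rule did not use marked these cells as macrophages. Counts of Kupffer cells and of all other cells were summed within each area and compared by edgeR's quasi-likelihood test with the area as a block, the 5 selection genes left out. Of 993 genes, 32.7% passed an adjusted p of 0.05 (325 genes, Benjamini-Hochberg), with 18.5% higher and 14.2% lower in Kupffer cells. The split depended on the scaling. Scaled by library size alone, 138 genes were higher and 385 lower, and the median over all genes moved from -0.07 to -0.24 on the log2 scale, whereas DESeq2 called 167 higher and 73 lower. The share minimum of the rule is computed from all gene counts of a cell, so it tends to keep out cells with many other counts.

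A list of 26 Kupffer identity genes had 9 members on the panel, and all 9 were higher in Kupffer cells, with a median log2 difference of 1.5 against -0.07 over all genes tested. Vsig4, Clec4f, Timd4, Folr2 and Adgre1, further markers of this cell type, were not among the targets. Csf1r, the receptor for colony-stimulating factor 1, stood at 2859, 3772 and 3480 CPM (gene counts scaled to a common library total, the 5 selection genes left out) in Kupffer cells of control areas 1 to 3. In HIRA KO areas 1 to 3 it stood at 2505, 1935 and 3143 CPM. All other cells of the same areas held 455 to 679 CPM, so the 6 Kupffer values lay above every one of them. Its log2 difference was 2.59 (SE 0.10, adjusted p = 2.09e-19), the highest of all genes tested.

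Slc40a1 encodes ferroportin, the only known exporter of cellular iron. Its level in Kupffer cells was 5507, 4761 and 5294 CPM in control areas and 4918, 5551 and 5180 CPM in HIRA KO areas. Other cells held 1215 to 1712 CPM, and Slc40a1 was higher in Kupffer cells by 2.07 (SE 0.08, log2). Cd68, a glycoprotein of macrophage lysosomes, stood at 3111, 3589 and 3256 CPM in control and 3097, 3140 and 2989 CPM in HIRA KO Kupffer cells, against 906 to 1088 CPM in other cells (log2 1.88, SE 0.09). The 6 areas differed little from one another in either gene. Nr1h3, which encodes the oxysterol receptor LXRα, was higher by 1.46, the receptor kinases Axl and Mertk by 1.5 and 0.85, the transcription factor gene Maf by 0.60 and the NAD glycohydrolase gene Cd38 by 0.67 (log2). Cd163, the scavenger receptor for haemoglobin and haptoglobin, was higher by 1.65 (SE 0.17, adjusted p = 3.09e-09).

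**Figure D2:**
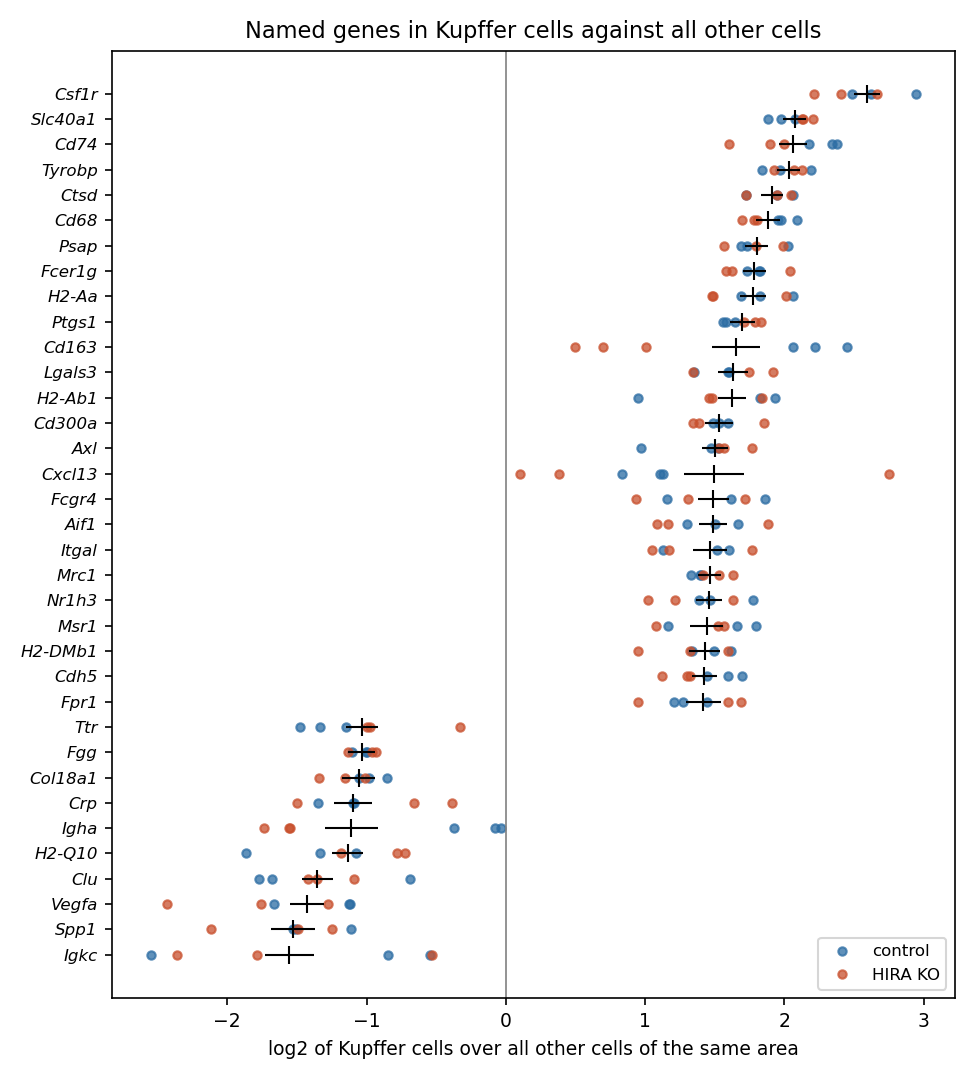
Log2 difference of Kupffer cells over all other cells (horizontal axis) for the 25 named higher and 10 named lower genes (vertical axis), with the fitted value and its standard error as black marks and the 6 areas as points coloured by genotype. Csf1r was the highest at 2.59 and Igkc the lowest at -1.55.

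Receptor and signalling genes of myeloid cells were higher in Kupffer cells. Of 24 tested genes for Fc receptors, their signalling adaptors and myeloid surface receptors, 21 were higher and 0 lower (median log2 1.04). Tyrobp, an adaptor with an immunoreceptor activation motif, stood at 4288, 4688 and 3852 CPM in control and 4144, 4187 and 4633 CPM in HIRA KO Kupffer cells, against 1089 to 1253 CPM in other cells (log2 2.03). Fcer1g, the common Fc receptor gamma chain, was higher by 1.78 and Fcgr4, an activating receptor for IgG, by 1.49. The inhibitory receptor gene Cd300a was higher by 1.53, the integrin gene Itgal by 1.46, Aif1 by 1.48 and Fpr1, a receptor for formylated peptides of bacteria, by 1.42.

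Among 17 genes of lysosomes and lipid handling, 10 were higher and 0 lower (median log2 0.35). Ctsd, the lysosomal protease cathepsin D, stood at 5255, 4468 and 6288 CPM in control and 6922, 7042 and 4671 CPM in HIRA KO Kupffer cells, against 1287 to 2041 CPM in other cells. It was higher by 1.91, and Psap, the precursor of the saposins that activate lipid hydrolases, by 1.80 (log2). Lgals3 was higher by 1.63, the scavenger receptor gene Msr1 by 1.44 and Apoe by 1.19. The 7 remaining members did not pass the test.

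Antigen presentation genes were higher too. Of 8 MHC class II genes tested, 6 were higher, led by the invariant chain gene Cd74 at 2.06 and H2-Aa at 1.78 (log2), and H2-DMb1, which belongs to the peptide-loading complex, was higher by 1.43. H2-Aa varied widely by area, at 6516, 2966 and 5791 CPM in control and 9244, 4441 and 11658 CPM in HIRA KO Kupffer cells. Its lowest value of each genotype was in area 2, as it was in other cells, at 1022 CPM in control and 1735 CPM in HIRA KO. Of 17 interferon response genes, 12 were higher and 0 lower (median log2 0.48), among them Ifitm3 at 0.86. Among 37 cytokine and chemokine genes, 8 were higher and 5 lower. Cxcl13, a chemokine that draws B cells, was higher by 1.49, Il1b by 1.22, the scavenger chemokine Cxcl16 by 1.0 and Tnf by 0.49. Cxcl13 rested in part on HIRA KO 3 and was higher by 0.84 without that area. Vegfa was lower by 1.43 on the log2 scale, and Arg1, Cxcl1, Osm and Cxcl3 were the other lower members. Of the monocyte and inflammatory genes, Plac8 was higher by 0.60, Ccr2 by 0.58 and Vim by 0.50 (log2), and Fn1 was lower.

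Markers of neighbouring cell types were mostly lower or did not pass the test. Of 12 hepatocyte genes 10 were lower (median log2 -0.83), among them the acute phase gene Crp at -1.10, the fibrinogen gene Fgg at -1.04 and Ttr, the plasma carrier of thyroxine and retinol-binding protein, at -1.03. Of 13 biliary genes 9 were lower, led by Spp1 at -1.53 and Clu at -1.35, and of 13 B and plasma cell genes 6 were lower, led by Igkc at -1.55. Of 15 endothelial genes only Mrc1 and Cdh5 were higher, at 1.46 and 1.42, and Kdr and Ramp2 were lower. Mrc1, the mannose receptor, is made by sinusoidal endothelium and by macrophages, and Cdh5 encodes VE-cadherin, a junction protein of endothelium. Of 17 stellate cell genes 6 were higher, among them Dcn at 0.60, and 1 was lower. Kupffer cells lie against endothelial and stellate cells in the sinusoid, and the part of transcripts assigned across cell borders in these values was not tested.

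Promoters of the named higher genes were read from RefSeq on GRCm38.p6, in a window from 250 bases before to 50 bases after the first listed transcript start. Of the 25 genes 17 were matched. The letters GAGGAA on either strand, the core of sites bound by the myeloid factor PU.1, stood in 9 of these 17 windows (52.9%), in 36.9% of the windows of 720 panel genes and in 28.3% of all 27025 windows. The letters CACGTG, the palindromic E-box bound by TFEB and related factors, stood in 1 of 17 (5.88%), in 6.81% of panel windows and in 7.24% of all. Both motifs were chosen after the sequences had been seen, and a match is a description of letters only. Mrc1 held 3 matches of GAGGAA, Cd68 held 2, and Ctsd held 2 of CACGTG. Cd68 and Ctsd are shown as lysosomal genes with an example of each motif, and Cd163 because the comparison of genotypes below turns on it. Capitals mark the matches, GAGGAA or its reverse complement in Cd68 and CACGTG in Ctsd, and the Cd163 window at chr6:124304401-124304700 on the plus strand held neither. The Cd68 window is chr11:69666121-69666420 and the Ctsd window chr7:142387778-142388077, both on the minus strand and written 5′ to 3′ along the gene.
Cd163: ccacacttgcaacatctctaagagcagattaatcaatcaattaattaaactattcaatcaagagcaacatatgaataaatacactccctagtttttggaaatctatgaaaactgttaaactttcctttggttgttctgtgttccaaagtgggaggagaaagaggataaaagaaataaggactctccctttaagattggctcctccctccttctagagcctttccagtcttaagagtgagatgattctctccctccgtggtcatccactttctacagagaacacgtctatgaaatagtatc
Cd68: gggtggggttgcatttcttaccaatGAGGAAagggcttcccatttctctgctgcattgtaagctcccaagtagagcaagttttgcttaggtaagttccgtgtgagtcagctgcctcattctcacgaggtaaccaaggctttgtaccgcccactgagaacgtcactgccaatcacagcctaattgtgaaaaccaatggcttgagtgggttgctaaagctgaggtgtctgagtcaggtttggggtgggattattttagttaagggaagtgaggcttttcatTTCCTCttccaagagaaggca
Ctsd: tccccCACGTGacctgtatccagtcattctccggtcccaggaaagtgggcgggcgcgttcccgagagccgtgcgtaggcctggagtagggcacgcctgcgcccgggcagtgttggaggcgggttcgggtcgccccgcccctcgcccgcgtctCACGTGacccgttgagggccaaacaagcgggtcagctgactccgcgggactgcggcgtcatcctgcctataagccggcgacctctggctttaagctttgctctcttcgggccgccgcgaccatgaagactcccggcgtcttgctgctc

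Kupffer cells differed from other MHC class II-rich cells of the same areas. These were 3349 cells in which H2-Aa, H2-Ab1, H2-Eb1 and Cd74 together reached at least 4 counts and 4% of gene counts, outside the Kupffer rule. With the genes of both rules left out, 15.3% of 957 genes passed the test (146 genes, edgeR quasi-likelihood, adjusted p under 0.05), 7.73% higher and 7.52% lower in Kupffer cells. The 9 identity genes were again all higher, led by Slc40a1 at 1.67 and Csf1r at 1.45 (log2), with Cd163 at 1.16, Nr1h3 at 1.14 and Cd68 at 1.02. Of the 24 Fc receptor and adaptor genes 11 were higher, among them Fcgr4 at 1.02 and Tyrobp at 0.89. Of 17 lysosome and lipid genes 9 were higher, with Msr1 at 1.05 and Ctsd at 0.99, and the fatty acid carrier gene Fabp5 was lower. Cdh5, Mrc1 and Ptgs1, the gene of cyclooxygenase 1, were higher by 1.32, 1.25 and 1.25.

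The genes lower in Kupffer cells than in these cells held most of the B cell list. Of 13 B and plasma cell genes 11 were lower, led by the immunoglobulin genes Igkc at -2.96 and Ighm at -2.79, with Mzb1 at -1.44. H2-Ob, H2-DMb2 and Ciita, which act in class II presentation, were lower by 1.03, 1.21 and 1.12 on the log2 scale. The comparison class therefore held B-lineage transcripts and not only those of myeloid cells. S100a4 was lower at -1.30, and with S100a6, Vim, Ccr1 and S100a10 it made 5 lower genes among 15 of the monocyte list. Of 17 stellate genes 8 were lower, among them Dpt at -1.05, whereas 4 of 12 hepatocyte genes, Apoc1, Gc, Fgg and Ttr, were higher in Kupffer cells.

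Some Kupffer cells also met the MHC class II rule. They were 663 cells, or 38.8%. By area they made up 40, 9.42 and 32.8% of the Kupffer cells of control areas 1 to 3, and 50.3, 17.1 and 56.0% in HIRA KO. HIRA KO was above control in each slide row, but the groups overlapped (exact permutation p = 0.4). In a comparison added after the data were seen, these cells were set against the remaining Kupffer cells of the same area, and 1.47% of 407 genes passed the edgeR test (6 genes). Apoe was higher by 0.56 and Psap by 0.37 (log2), each in 6 of 6 areas. Ttr at -0.53, Gc at -0.56, the apolipoprotein gene Apoc1 at -0.36 and the selenium carrier gene Selenop at -0.39 were lower. The share minimum of the MHC class II rule tends to keep out cells with many other counts, and its part in these values was not tested. Without HIRA KO 1 only 3 genes passed, Apoe, Psap and Ttr, and control 2 had only 18 such cells.

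Of the genes of Kupffer cells, Cd163 had the lowest p between genotypes and was lower in HIRA KO. Of 906 genes, 2 passed the edgeR quasi-likelihood test between genotypes, or 0.221% (55 at an unadjusted p under 0.05). Kupffer cells of control areas 1 to 3 held 72, 69 and 107 Cd163 counts, or 3027, 2527 and 2659 CPM. Kupffer cells of HIRA KO areas 1 to 3 held 17, 20 and 72 counts, or 774, 634 and 692 CPM. The highest HIRA KO area stood far below the lowest control area, and the areas of each genotype lay close together. In HIRA KO 3, however, 40 of the 72 counts lay in 1 field of view, at 1736 CPM. Its other fields held 78 to 669 CPM, so the level of that area rested in large part on 1 field. The means were 2738 ± 259 and 700 ± 70.2 CPM (SD, n = 3 areas each, exact permutation p = 0.1, the smallest possible). The fitted log2 difference was -1.85 (SE 0.24, adjusted p = 3.0e-05, edgeR). The highest of the 10 negative probes reached 420 to 522 CPM in control Kupffer cells, and 501, 730 and 500 CPM in those of HIRA KO areas 1 to 3. Cd163 in HIRA KO thus lay near that background, below it in area 2 and above it in areas 1 and 3. Its fold is uncertain there.

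The difference was also seen in how many Kupffer cells held a Cd163 count. These were 28.7, 23 and 20.9% in control areas and 8.57, 7.41 and 10.1% in HIRA KO areas, again without overlap. With each cell thinned to 50 gene counts, the shares were 15, 8.20 and 12.8% in control and 4.68, 3.86 and 3.30% in HIRA KO. All other cells, thinned alike, held 3.16% in control and 2.21% in HIRA KO on average over areas. Across fields of view the median was 2438 CPM in control and 528 CPM in HIRA KO. A level under 1000 CPM was found in 4 of 25 control fields and in 20 of 25 HIRA KO fields.

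**Figure D3:**
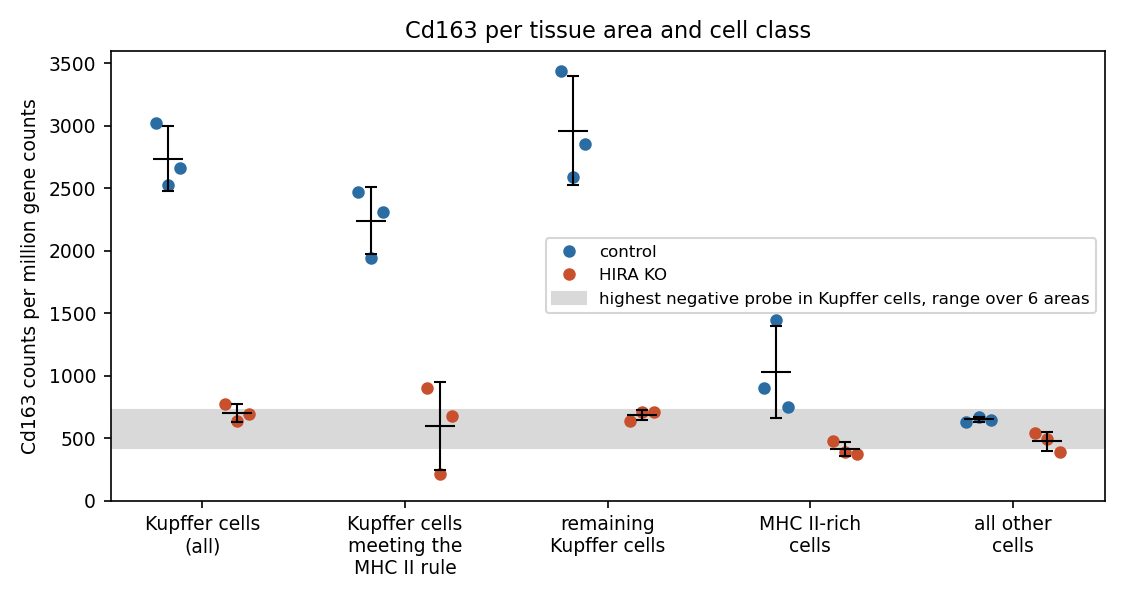
Cd163 level in CPM (vertical axis) in each tissue area (points, by genotype) with mean and SD (lines), for all Kupffer cells, those meeting and those not meeting the MHC class II rule, MHC class II-rich cells outside the Kupffer rule and all other cells (horizontal axis). The grey band spans the highest negative probe of the Kupffer cells over the 6 areas. Kupffer cells stood at 2527 to 3027 in control areas and at 634 to 774 in HIRA KO areas.

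Cd163 differed in Kupffer cells of both kinds. Among those that met the MHC class II rule it averaged 2241 ± 270 CPM in control and 598 ± 354 in HIRA KO, and among the remaining ones 2960 ± 436 and 687 ± 39.3 CPM (SD, n = 3 areas each). Tested apart, as settings added after the data were seen, the log2 differences were -1.69 (edgeR adjusted p = 0.000317) and -1.97 (edgeR adjusted p = 0.000132). The Kupffer cells that met the rule held few Cd163 counts, 25, 5 and 33 in control areas and 10, 1 and 39 in HIRA KO areas. In MHC class II-rich cells outside the Kupffer rule the means were 1031 ± 367 and 414 ± 55.4 CPM. In all other cells together they were 650 ± 20.3 and 475 ± 77.9 CPM, a log2 difference of -0.34 (edgeR adjusted p = 0.487). Those levels were near the highest negative probe of the Kupffer cells, at 420 to 730 CPM over the 6 areas, so a fold there is uncertain too. The genotype difference in Kupffer cells was set against that in all other cells by an interaction test in edgeR. Of 993 genes, 0.101% passed, and the 1 gene was Cd163, with an interaction of -1.44 (SE 0.21, adjusted p = 0.000481, 44 genes at an unadjusted p under 0.05). Among the 269 Kupffer cells with at least 6 counts and 8% this interaction was -0.82 and did not pass (edgeR adjusted p = 0.999). The remaining Kupffer cells were then counted among all other cells.

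The other genes of the identity list gave no such difference. Slc40a1 differed between genotypes by 0.11 (SE 0.24), Csf1r by -0.28 (SE 0.25), Cd68 by -0.01 (SE 0.23), Nr1h3 by -0.20, Maf by -0.15, Axl by 0.22 and Cd38 by 0.16 on the log2 scale, and none passed (edgeR adjusted p from 0.937 to 0.991). Mertk, a receptor for the uptake of apoptotic cells, stood at 1303, 1465 and 1218 CPM in control and 729, 952 and 779 CPM in HIRA KO Kupffer cells. Its areas did not overlap, but the fitted difference of -0.58 did not pass (edgeR adjusted p = 0.737). Groups that do not overlap were not rare. Every HIRA KO area was below every control area for 5.74% of the 906 genes and above for 5.85%. The identity list summed without Cd163 took 2.11, 2.25 and 2.33 of 100 gene counts in control and 1.91, 2.0 and 2.09 in HIRA KO Kupffer cells. Those groups lay close together without overlap, and other cells held 0.815 to 0.843 and 0.749 to 0.797.

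Ttr was the second gene past the test and was higher in HIRA KO. Kupffer cells of control areas held 6306, 7544 and 6835 CPM and those of HIRA KO areas 17760, 22489 and 24634 CPM. The groups were far apart, with a log2 difference of 1.76 (SE 0.27, edgeR adjusted p = 0.00026). Ttr is a hepatocyte gene, and in all other cells of the same areas it stood at 16020, 21201 and 21671 CPM in control and 25424, 49200 and 54957 CPM in HIRA KO. The interaction of 0.55 for Ttr did not pass (edgeR adjusted p = 0.93), so its difference in Kupffer cells was not shown to depart from that around them. The 12 hepatocyte genes together took 2.78 to 3.39 of 100 gene counts in control and 4.65 to 5.02 in HIRA KO Kupffer cells, and 4.86 to 6.44 and 6.40 to 10.5 in other cells. Within Kupffer cells 1 of the 12 passed and 10 were above 0 (median log2 0.43 against -0.02 over all genes tested). Gc, the vitamin D-binding protein gene, was at 1.03 (edgeR adjusted p = 0.0693) and Vtn, the vitronectin gene, at 0.98 (edgeR adjusted p = 0.0914). With the hepatocyte list left out of library sizes and tests, Cd163 was the 1 gene called, at -1.84. With the slide row as a block, 7 genes passed, adding Gc, Vtn, Azgp1, Gpnmb and H2-Aa to Cd163 and Ttr.

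**Figure D4:**
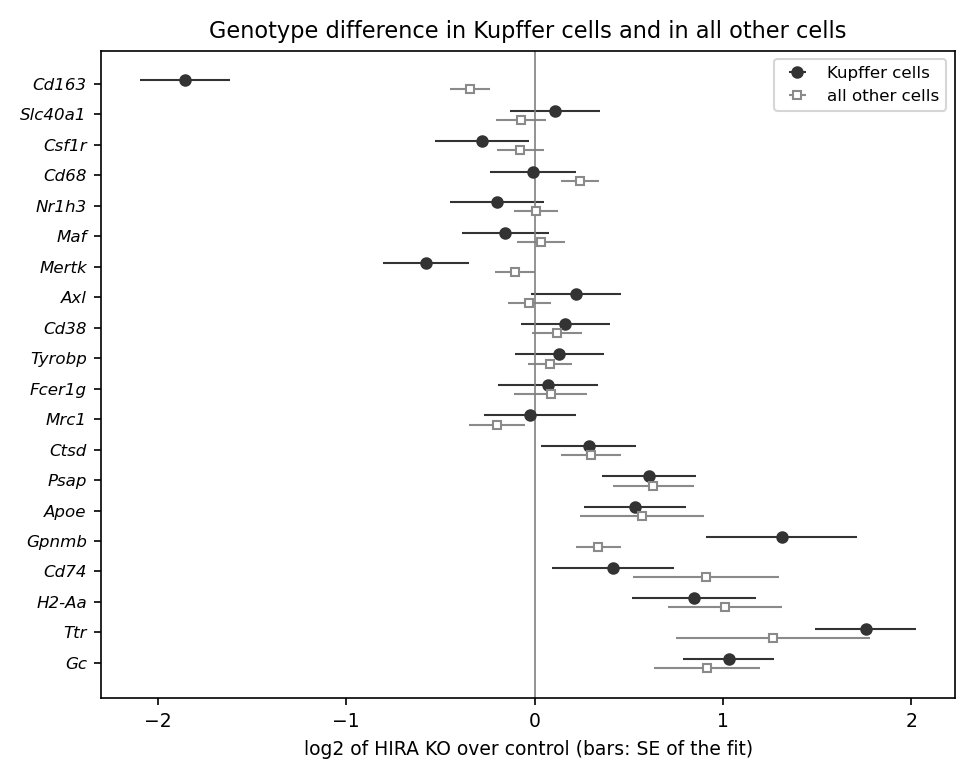
Log2 difference of HIRA KO over control in Kupffer cells (filled circles) and in all other cells (open squares), with standard errors as bars, on the horizontal axis, for named genes on the vertical axis. Cd163 stood at -1.85 in Kupffer cells and -0.34 in other cells, and Ttr at 1.76 and 1.27.

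In the first fit between genotypes, with all areas and no block, only the identity list among the macrophage lists held a gene past the test. With the block, Gpnmb of the lysosome and lipid list and H2-Aa of the MHC class II list passed, and with cells thinned to 50 counts Plac8 of the monocyte list did. The median log2 difference was 0.37 over 8 MHC class II genes, 0.36 over 17 lysosome and lipid genes, 0.05 over 24 Fc receptor and adaptor genes, -0.07 over 37 cytokine and chemokine genes and 0.10 over 16 interferon genes. Scaling by library size alone moved the median of all genes from -0.02 to -0.13, so small shifts of lists depend on the scaling. Gpnmb, a glycoprotein of lipid-laden macrophages, stood at 547, 256 and 224 CPM in control and 1047, 1174 and 404 CPM in HIRA KO Kupffer cells. The groups overlapped, and its difference of 1.31 (SE 0.40) did not pass (edgeR adjusted p = 0.444), although it did without HIRA KO 3 (1.82, edgeR adjusted p = 0.00521) and with the block (1.40, edgeR adjusted p = 0.0178). Cxcl13 stood at 1219, 1318 and 1044 CPM in control and at 547, 698 and 7958 CPM in HIRA KO. Only HIRA KO 3 stood above control. The fitted difference of 1.67 (edgeR adjusted p = 0.643) rested on that area and was -0.86 without it, but it passed the test without control 2 or without HIRA KO 1. The scavenging receptor genes Msr1 and Mrc1 differed by -0.15 and -0.02. Nod2, a sensor of bacterial cell wall fragments, stood at 1387, 1062 and 1268 CPM in control and 638, 856 and 644 CPM in HIRA KO Kupffer cells. Its areas did not overlap, and its difference of -0.70 (SE 0.24) did not pass (edgeR adjusted p = 0.643). Plac8 at -0.70, Ctla4 at -0.81, Tnfrsf18 at -0.64, Oasl1 at -0.62, Nusap1 at -0.65 and Msmb at -0.65 were the further genes with the lowest p among lower values. Among higher values these were Azgp1 at 0.93, Atp5b at 0.74, Igkc at 0.75 and Scgb3a1 at 0.90, and none of the 10 passed. Igkc stood at 967, 476 and 969 CPM in control and 1275, 1205 and 1307 CPM in HIRA KO Kupffer cells, against 956 to 7457 CPM in other cells.

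Stains and sizes, which the rule did not use, also set Kupffer cells apart. The median CD45 stain, a marker of blood-derived cells, was 2743 in Kupffer cells and 857 in other cells on average over areas, and higher in Kupffer cells in 6 of 6 areas. By area it was 2399, 2457 and 2842 in control and 2940, 2638 and 3183 in HIRA KO Kupffer cells, whereas other cells stayed between 647 and 1076. The B2M stain, which marks MHC class I, was 4638 against 3161 and the CD3 stain 692 against 639, each higher in 6 of 6 areas. The CD3 gap was only 0.2 in control 2 and 10.7 in control 3, and 48.5 to 93 in the other areas. With means over cells in place of medians the CD45 stain was 3098 against 1772, so the ratio moved from 326 to 194%, and CD3 was higher in 5 of 6 areas only (exact sign-flip p = 0.0625). The nucleus was smaller in 6 of 6 areas, at 2553 against 2916 square pixels, and the cell in 5 of 6, at 9709 against 12592. PanCK and DAPI stains were close to those of other cells, at 2776 against 2786 and 2550 against 2518. Each of the CD45, B2M, CD3 and nucleus differences reached p = 0.031 (exact sign-flip test, two-sided), the smallest that 6 areas allow, or 0.0625 after adjustment over the 8 measures. Between genotypes, where 3 against 3 areas cannot give a p under 0.1, the gaps in cell and nucleus area reached that value. In square pixels, Kupffer minus other cells gave -4476 for the cell and -461 for the nucleus in control, and -1292 and -264 in HIRA KO (means over 3 areas each, exact permutation p = 0.1 for both). Other cells were themselves smaller in HIRA KO, with a cell area of 10349 against 14836 in control (p = 0.1 by permutation). Kupffer cell area was also lower there, at 9057 against 10360 (p = 0.2 by permutation). Nuclei, in the same order, measured 2584 against 2523 for Kupffer cells (permutation p = 0.5) and 2848 against 2983 for other cells (permutation p = 0.3). The narrower gap in cell area was thus not a larger Kupffer cell. The share minimum of the rule keeps out cells with many other counts, and its part in the smaller size of Kupffer cells was not tested.

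Kupffer cells lay beside other Kupffer cells more often than their share of the area. Among the 20 nearest cells of a Kupffer cell, 3.79, 3.74 and 6.66% were Kupffer cells in control areas and 3.09, 2.82 and 11.6% in HIRA KO areas. Each value was above the share of its area, by 0.57 ± 0.17 on the log2 scale (SD, n = 6 areas, exact sign-flip p = 0.031, adjusted over 5 tests of position 0.0391), with an exact permutation p of 0.7 between genotypes. Set against the share of the field of view, in a setting added after the data were seen, the excess was 0.34 ± 0.066. Neighbouring cells share transcripts across their borders, and the part of this in the excess was not tested.

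Cells with bile duct transcripts were less frequent around Kupffer cells than in the area as a whole. Biliary-rule cells, with at least 4 counts and 4% of Spp1, Sox9, Epcam, Krt19 and Clu, were below their area's share among the 20 nearest cells in 6 of 6 areas (log2 -1.26 ± 0.83, exact sign-flip p = 0.031, adjusted 0.0391). The log2 values were -2.36, -1.99 and -1.33 in control and -0.45, -0.27 and -1.14 in HIRA KO, without overlap (exact permutation p = 0.1, the smallest possible). In the third of cells nearest to a biliary-rule cell, 1.10, 2.66 and 3.77% were Kupffer cells in control and 1.20, 1.83 and 5.48% in HIRA KO. In the third farthest away they were 3.34, 2.80 and 4.95% and 2.22, 2.54 and 8.34%. The near share was lower in each area, by 1.36 ± 1.01 points (SD, n = 6 areas, exact sign-flip p = 0.031, adjusted 0.0391). Near minus far was -1.18 points in control and -1.53 points in HIRA KO on average (exact permutation p = 0.7). The distances behind near and far differed by area, however. Cells counted as near lay within 549, 931 and 651 pixels of a biliary-rule cell in control areas 1 to 3. Cells counted as far lay beyond 540, 468 and 1239 pixels in HIRA KO areas 1 to 3. In HIRA KO 1 and 2, far thus began closer than near ended in every control area. Near minus far is therefore not a like measure across genotypes, and its comparison between them cannot be set against that of the 20 nearest cells. With at least 6 counts and 8% near minus far was -0.216 points, with 1 area above 0, and did not pass (exact sign-flip p = 0.125). MHC class II-rich cells outside the rule were below their area's share as well, with a log2 ratio of -0.27 ± 0.17 in 6 of 6 areas (exact sign-flip p = 0.031, adjusted 0.0391). The log2 values were -0.05, -0.18 and -0.20 in control and -0.46, -0.28 and -0.47 in HIRA KO, again without overlap (exact permutation p = 0.1). Kupffer cells that met the MHC class II rule were not counted in this class, and Kupffer cells were in excess among these neighbours. Leaving them out lowers the ratio, and its part in the values of either genotype was not tested. Glul-rule cells mark the cells by central veins. Near minus far around them was -0.285 ± 0.789 points, lower in 4 of 6 areas, and did not pass (exact sign-flip p = 0.4375). These cells numbered 26, 93 and 64 in control areas and 6, 22 and 137 in HIRA KO areas. Cells counted as near lay within 2801 pixels of them in control 1 and 6387 pixels in HIRA KO 1. In the other areas this distance ran from 1233 to 2444 pixels. With so few Glul-rule cells and such distances, the test cannot decide whether Kupffer cells were more or less frequent beside central veins.

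**Figure D5:**
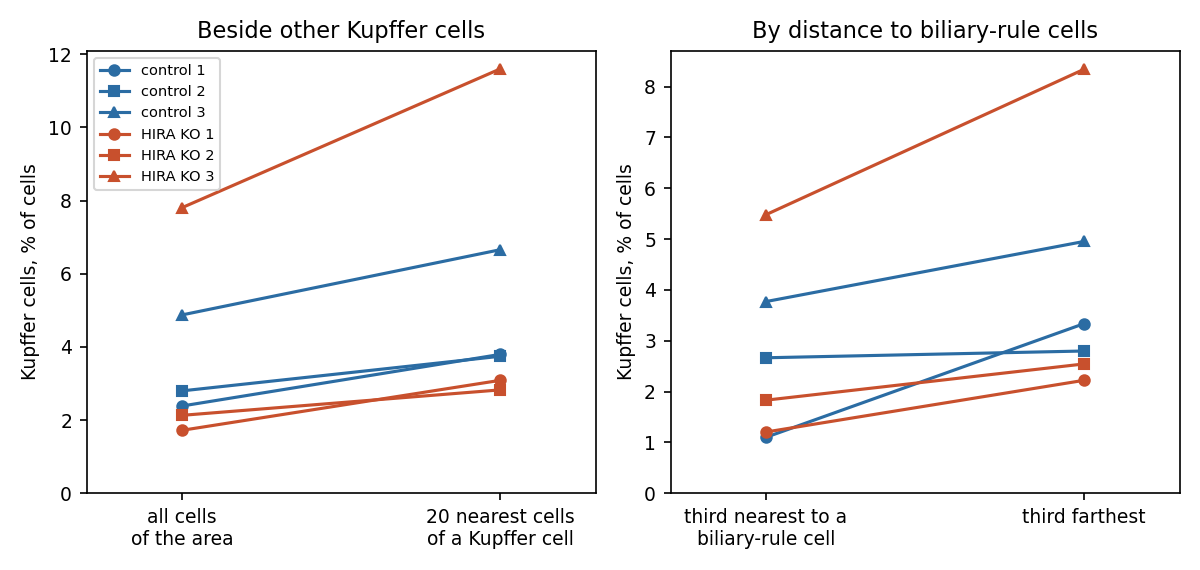
Percentage of Kupffer cells (vertical axes), with 1 line for each tissue area. The left panel joins the share of the whole area to that among the 20 nearest cells of Kupffer cells, and the right panel joins the third of cells nearest to a biliary-rule cell to the third farthest away. The share among neighbours was above that of the area in each of the 6 areas, and the share near biliary-rule cells below the share far from them in each.

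The position of transcripts inside the cell was compared last. Of the transcripts of all genes but the 5 selection genes, 50.5 ± 3.45% lay over the nucleus in Kupffer cells and 48.1 ± 3.94% in other cells (SD, n = 6 areas), higher in Kupffer cells in 6 of 6 areas (difference 2.41 ± 1.35 points, exact sign-flip p = 0.031). Of Cd163 transcripts in Kupffer cells 59.7 ± 11.1% lay over the nucleus, whereas Ttr transcripts in the same cells lay there in 20.1 ± 6.25% and in the cytoplasm in 61.8%. In other cells 44.8% of Cd163 and 26.4% of Ttr transcripts lay over the nucleus. In Kupffer cells that share was 52.9% for Slc40a1, 51.0% for Cd68 and 45.6% for Csf1r. Cd163 had only 17 and 20 counts in HIRA KO 1 and 2, and differences between single genes were not tested.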

How the data were processed

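Deposited by the authors were unnormalized counts per target and cell for 50 fields of view, a table of single transcripts with their compartment, and, per the file headers, mean stain intensity, area and position per cell. The platform decoded and segmented. Software versions, pixel size and stain background correction are not given in the sources used here. Groups came from the labels, and consecutive fields of 1 genotype formed the 6 areas. Cells under 20 gene counts (2215 of 52132) and negative probes were left out of sums. Counts were summed per area and class, without the 5 selection genes, and tested with edgeR 4.0.16 (R 4.3.3, TMM, filterByExpr, quasi-likelihood, Benjamini-Hochberg at 0.05). DESeq2 1.42.0, other scalings, stricter rules, thinning, slide rows and left-out areas were alternatives. Values of 1 number per area were compared by exact permutation or sign-flip tests (Python 3.11.15). On simulated data for the comparison of genotypes over 879 genes, 63.2% of changes of 1 and 100% of changes of 2 (log2) were recovered, with 8 false calls. The table of transcripts gave the same Kupffer counts for 100% of genes. No doublet caller was run, since cells of a section overlap.

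Named genes are, against all other cells, the 25 highest and 10 lowest folds among called genes that moved alike in 6 of 6 areas, the higher ones with counts above the highest negative probe. Against MHC class II-rich cells 12 per direction were taken, without that minimum for lower genes. For genotypes they are the called genes and the 8 per direction of lowest p. Members of the macrophage lists may also be named. Genes of other lists are named to describe those lists and were chosen after their values were seen. Members and lists were chosen with earlier results of these data known. Motifs were searched in RefSeq promoters of GRCm38.p6. Intervals and p-values take no account of segmentation errors.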

Additional observations from a re-analysis of the deposited data

Results flagged for a closer look

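The genotype difference of Cd163 in Kupffer cells was not the same as that in all other cells of the same areas, by a test of the difference itself. The interaction was -1.44 on the log2 scale (SE 0.21, edgeR adjusted p = 0.000481), with Cd163 lower by 1.85 in Kupffer cells and by 0.34 in other cells of HIRA KO. The 3 HIRA KO levels lay below the 3 control levels in Kupffer cells. All other cells held 632 to 672 CPM in control and 390 to 543 CPM in HIRA KO areas. The highest negative probe of the Kupffer cells reached 420 to 730 CPM over the 6 areas, so the fold in other cells is uncertain. Of all Cd163 transcripts, 8.35% lay in Kupffer cells and 85.1% in other cells. In MHC class II-rich cells outside the Kupffer rule Cd163 also stood lower, at 414 against 1031 CPM, without overlap of the areas (exact permutation p = 0.1, the smallest possible), and the difference in Kupffer cells was not tested against the difference in those cells. With the 269 Kupffer cells of at least 6 counts and 8% the interaction was -0.82 and did not pass (edgeR adjusted p = 0.999). The remaining Kupffer cells were then counted among all other cells. The highest negative probe, at 500 to 730 CPM in HIRA KO Kupffer cells, stood beside Cd163 levels of 634 to 774 CPM there, and the counts per cell area were higher in HIRA KO areas. The part of either in this result was not tested.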

How the results depend on the processing

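The call of Cd163 between genotypes passed in all 17 fits that tested it, with log2 differences from -1.97 to -1.69 and edgeR or DESeq2 adjusted p from 3.29e-09 to 0.00274. With at least 6 counts and 8% only 23 genes could be tested between genotypes, Cd163 not among them, and 1 was called. Only 269 Kupffer cells met that minimum. The remaining ones were counted among all other cells, and among MHC class II-rich cells where they met that rule. The part of these changes in the values at that minimum was not tested. At that minimum the calls fell to 125 against all other cells, 54 against MHC class II-rich cells and 0 for the interaction (edgeR, 32 at an unadjusted p under 0.05), the share near biliary-rule cells differed by -0.216 points and no longer passed, the CD3 stain was higher in 4 of 6 areas (exact sign-flip p = 0.125), and the values changed sign for the interactions of Gpnmb (-0.27) and Ptges3 (-0.24) and for the PanCK (13.6) and DAPI (-53.5) stains. The neighbourhood of Kupffer cells could not be computed there, since 2 areas had no member beside a member. Means in place of medians turned PanCK (34.6) and DAPI (-266) too, and CD3 was then higher in 5 of 6 areas. Library size alone gave 523 calls against all other cells. Between genotypes, the slide row as a block gave 7 calls and the hepatocyte list left out gave 1. The slide rows pair areas only by their place on the slide. The block ended no call of Cd163 or Ttr.

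Leaving out 1 area in turn gave differences in share from -1.43 to 1.62 points, 2 to 4 calls between genotypes (4 without control 2, which added Azgp1 and Cxcl13), 243 to 319 against all other cells, 104 to 143 against MHC class II-rich cells, 1 to 2 for the interaction (2 without control 1, which added Jchain) and 3 to 7 within Kupffer cells. It gave 4 to 5 stain and size measures at the smallest p, Cxcl13 differences from -0.86 to 2.13, neighbourhood excesses from 0.51 to 0.60, and near differences from -0.53 to -0.11 points for Glul-rule and -1.60 to -1.06 points for biliary-rule cells. PanCK differences ran from -41.1 to 5.4 and DAPI from -2.66 to 70.0. Of the alternative values of named genes that had passed, 773 kept their direction and passed, and 12 no longer passed.

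With 17 Cd163 counts in the Kupffer cells of HIRA KO 1, depth limits each single value, and 3 areas per group limit every comparison of shares. With 5 areas the smallest exact p is 0.0625, so no call of position or stain can pass there.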
